A study of Mus musculus with 102 samples.

Results

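Microglia of cisplatin-treated wild type mice that received AIBP into the spinal fluid were compared with microglia of cisplatin-treated wild type mice that received saline. The members were chosen by title: the AIBP group is WT7 and WT9 and the saline group is WT4, WT5 and WT6, with the 6 runs of each numbered sample summed. They make up 5 of the 17 numbered samples and 30 of the 102 runs of the series, and all 20461 genes that passed an expression filter were tested. No gene was called different between the groups by the main test. Among lists of microglial states and pathways, immediate early genes and chemokines had the lowest medians of AIBP over saline, and the size of these differences depended on single saline samples. Monocyte markers lay further below saline still, through 2 of the 3 saline samples.

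AIBP, encoded by Naxe, is a secreted protein that binds apolipoprotein A-I and speeds the removal of cholesterol from cells. It binds TLR4, a receptor that signals from cholesterol-rich lipid rafts of the plasma membrane, and so directs cholesterol removal to rafts of activated cells. Cholesterol leaves the cell through the transporters ABCA1 and ABCG1, whose genes are switched on by the sterol sensor LXR, while falling sterol levels switch on the synthesis genes through SREBP2. TLR4 signalling through MyD88 and NF-kB induces cytokines, chemokines and the inhibitors that end the response. Microglia are the resident macrophages of the spinal cord, and their inflammatory activation is studied as a driver of the neuropathic pain that follows cisplatin, a platinum drug that crosslinks DNA.

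The AIBP group (n = 2) was WT, with intraperitoneal cisplatin on days 1 and 3 and intrathecal AIBP on day 7. The saline group (n = 3) had the same genotype, the same cisplatin days and intrathecal saline on day 7. Values of WT naive samples (n = 3), which had no injection at all, are given beside some results, so a comparison with them holds cisplatin and the intrathecal injection together. A second AIBP and saline pair carries the label ABC-imKO (n = 3 each), with the same injections, in mice made for inducible deletion of Abca1 and Abcg1 in microglia. The sources used here do not give strain, age, the time from the intrathecal injection to collection, or how many mice stand behind each numbered sample. P-values therefore measure the spread between these numbered samples. Microglia were sorted from lumbar spinal cord by flow cytometry, their polyadenylated RNA was copied from an oligo(dT) primer and PCR-amplified, and each numbered sample was made into 3 libraries run on 2 lanes.

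The summed samples held 45.07 and 64.24 M counts (M for mega) in the AIBP group and 51.55, 60.35 and 61.71 M counts in the saline group. Levels are CPM, counts scaled to 1 M counts per sample on TMM-scaled library sizes. Microglial markers were high in all 5 samples: Csf1r, the receptor for the growth factor that keeps microglia alive, stood at 6863 and 6134 CPM with AIBP, against 6663, 4273 and 5554 CPM with saline. Saline sample 4 had the highest levels of immediate early genes, with a sum over the list of 33932 CPM, against 10777 and 18757 CPM in saline samples 5 and 6. Saline samples 5 and 6 had higher levels of monocyte markers, with a sum of 1468 and 1073 CPM over 17 genes, against 314 CPM in saline sample 4; the AIBP samples had 396 and 303 CPM. In bulk samples, fewer cells of a type and less RNA per cell cannot be told apart. The samples labelled ABC-imKO cisplatin AIBP had Cx3cr1, a fractalkine receptor of microglia, at 5551, 5250 and 7078 CPM, against 1718, 2218 and 2771 CPM in those labelled ABC-imKO cisplatin saline. The WT cisplatin saline samples had 5609, 5531 and 7103 CPM. For this gene the AIBP samples labelled ABC-imKO thus stood near WT and apart from the saline samples of their own label. They are therefore called by their labels. Under the ABC-imKO label, Abca1 had 98.5, 56.6 and 59.7 CPM with saline and 65.7, 59.6 and 32.6 CPM with AIBP. Abcg1 had 68.4, 50.9 and 54.1 CPM with saline and 44.6, 25.6 and 59 CPM with AIBP. In both genes the saline samples of this label overlapped those of WT, given below. Deletion was not tested.

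The question was which transcripts of spinal microglia differ after intrathecal AIBP once cisplatin has been given. By edgeR's quasi-likelihood test with Benjamini-Hochberg (BH) adjustment, 0 of 20461 genes passed 0.05 (0% called), and the smallest adjusted p was 0.996. Taking p under 0.05 without adjustment, 336 genes were higher with AIBP (1.64% of those tested) and 423 lower (2.07%). That is 759 genes in the lowest of the 20 equal p-value bins, against 1129 and 1141 genes in the next bins. DESeq2 called 104 genes (0.531% of the 19590 it gave an adjusted p), 15 higher and 89 lower, of which 64 averaged under 1 CPM and 10 averaged at least 10 CPM. limma-voom called 4 genes (0.0195%): Spin2c, Heyl and Gbx1, each near 0 in saline, and Nxpe5, listed at 0 in both AIBP samples.

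The precision of the comparison differed with expression level. Among the 8415 genes averaging at least 10 CPM over the 5 samples, the median 95% interval of a log2 fold change reached 0.73 to either side, a 1.66-fold change. At 100 CPM or more the half-width was 0.52, and 88.3% of 1945 genes had an interval that lay within 1 log2 unit of no change. Below 10 CPM the half-width was 4.13 and only 3.41% of 12046 genes had such an interval, so moderate differences of low genes were not detectable with these samples. The median log2 fold change of the 8415 genes was 0.03. The 2 AIBP samples differed from each other by a median of 0.245 on the log2 scale, against 0.317, 0.371 and 0.472 between pairs of saline samples and 0.285 to 0.392 between an AIBP and a saline sample. No pair across the groups differed more than the most distant pair of saline samples.

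**Figure D1:**
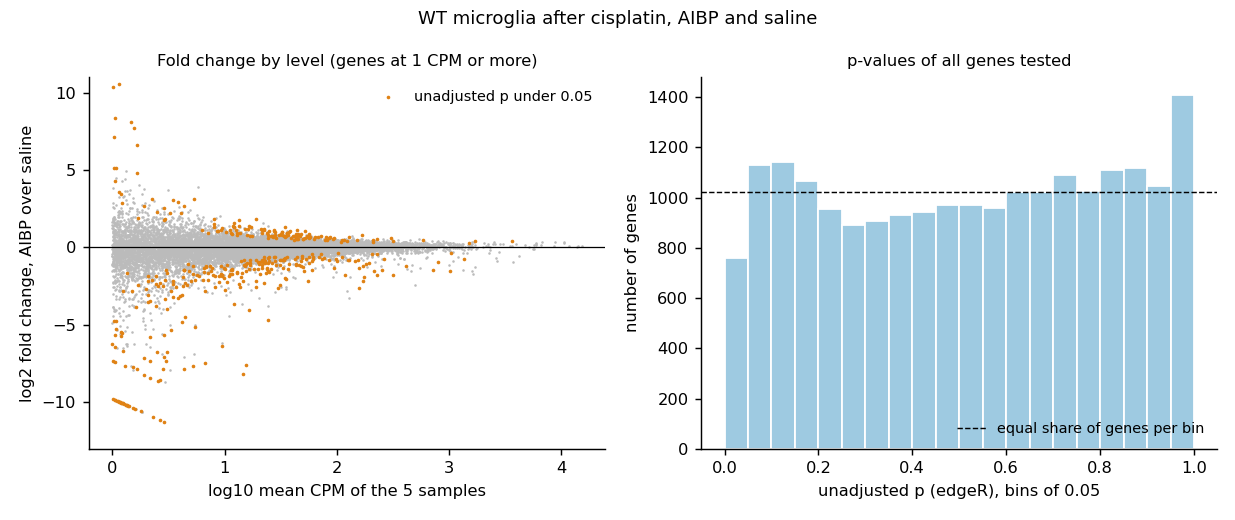
The left panel plots the log2 fold change (AIBP over saline, WT) against the log10 of mean CPM over the 5 samples for genes at 1 CPM or more, each point a gene, in orange where the unadjusted edgeR p was under 0.05; the right panel counts the p-values of all 20461 genes in bins of 0.05, with a dashed line at an equal share per bin. The cloud narrows as the level rises, and the lowest bin, with 759 genes, is the smallest.

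The receptor, transporters and partners of AIBP come first. Abca1 (chromosome 4, 53030787 to 53159895, GRCm38), which loads cholesterol onto apolipoprotein A-I, stood at 41.1 and 45.6 CPM with AIBP, against 61.8, 76.1 and 60.4 CPM with saline. Both AIBP samples lay below every saline sample, and the WT naive samples were higher still at 87.3, 114 and 106 CPM. The group means were 43.4 ± 3.18 CPM with AIBP (SD, n = 2) and 66.1 ± 8.69 CPM with saline (SD, n = 3). This was a log2 fold change of -0.61 ± 0.31 (SE; 95% interval -1.28 to 0.06; edgeR p = 0.0723, adjusted p = 0.996). The 6 AIBP libraries had 31.3 to 59.7 CPM of Abca1, against 143, 14.2 and 34.9 CPM in the 3 libraries of saline sample 4, so single libraries overlapped where summed samples did not. Abcg1 (chromosome 17, 31057675 to 31117988), which exports cholesterol to high-density lipoprotein, had 36.2 and 63.1 CPM with AIBP and 42.7, 56.4 and 65.7 CPM with saline. The Abcg1 groups overlapped fully, and the log2 fold change of -0.15 ± 0.36 had an interval of -0.91 to 0.62.

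Naxe itself (chromosome 3, 88056520 to 88058495) stood at 207 and 208 CPM with AIBP, against 168, 148 and 165 CPM with saline. The AIBP samples were above all saline samples and above the WT naive samples at 173, 152 and 140 CPM, with a log2 fold change of 0.38 ± 0.18 that did not pass (edgeR p = 0.0596, adjusted p = 0.996). The injected protein is not measured by RNA counts. Tlr4, the receptor that AIBP binds, had 65.9 and 124 CPM with AIBP and 84.8, 107 and 83.6 CPM with saline, so the groups overlapped. Its co-receptors Ly96 and Cd14 gave log2 fold changes of -0.40 ± 0.32 and -0.15 ± 0.26. Srebf2, the gene of the sterol-synthesis regulator SREBP2, stood at 17.6 and 17.3 CPM with AIBP, against 61.7, 19.4 and 27.2 CPM with saline, with saline sample 4 apart from the others, and its log2 fold change was -1.05 ± 0.54, or -0.42 without that sample. Of the 11 partner genes averaging at least 10 CPM, 1 did not overlap on the higher side and 3 on the lower side, with a median log2 fold change of -0.15. Over all genes of that level, 11.3% had both AIBP samples above all saline samples and 7.83% below. These shares are the background for every count of non-overlapping list members below.

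The 10 genes with the smallest p on each side are given as genes that did not pass, all with an adjusted p of 0.996. On the higher side, Riox1, a nucleolar histone demethylase and ribosomal oxygenase, had 64.8 and 53.9 CPM with AIBP, against 31.4, 37.3 and 30.3 CPM with saline (log2 fold change 0.85 ± 0.23, edgeR p = 0.0026). Asb13, a substrate receptor of a ubiquitin ligase, had 49.3 and 64 CPM, against 29.3, 21.5 and 29.1 CPM (1.09 ± 0.30). In both genes the lowest AIBP sample was well above the highest saline sample. Amz1, a metalloprotease, stood at 76.2 and 76.3 CPM with AIBP, against 58.2, 26 and 23.2 CPM with saline, with saline sample 4 apart from the other saline samples. Tm9sf3, a membrane protein of the Golgi, had 307 and 261 CPM with AIBP and 180, 219 and 173 CPM with saline (0.58 ± 0.17), and H2-M3, a class Ib molecule that presents formylated peptides, had 124 and 106 CPM with AIBP and 73.2, 81.2 and 79.8 CPM with saline. Those were the most abundant of the 10. Isg20l2, a nuclease of ribosomal RNA processing, St7, Oscp1, Ogfr, the opioid growth factor receptor, and Tceanc had log2 fold changes of 1.09, 1.18, 1.38, 1.00 and 1.82.

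On the lower side, Top1, the topoisomerase that relaxes DNA ahead of the replication and transcription machinery, stood at 39.4 and 47.2 CPM with AIBP, against 83.5, 70.6 and 66.1 CPM with saline. The means were 43.3 ± 5.52 CPM with AIBP (SD, n = 2) and 73.4 ± 9.03 CPM with saline (SD, n = 3). The log2 fold change was -0.76 ± 0.20 (edgeR p = 0.0015, adjusted p = 0.996), and DESeq2 called the gene (adjusted p = 0.0311). All saline samples were above both AIBP samples. Mcl1, an anti-apoptotic BCL2 relative, had 81 and 86.1 CPM with AIBP, against 315, 133 and 173 CPM with saline (-1.31 ± 0.38; -0.87 without saline sample 4). Stk17b, a kinase of the death-associated family, had 28.2 and 25.6 CPM with AIBP and 83.2, 48.7 and 43.3 CPM with saline (-1.12 ± 0.32). Sertad1, a cofactor of the cyclin D kinase CDK4, had 9.86 and 12.4 CPM with AIBP and 34.8, 21 and 46.1 CPM with saline (-1.61 ± 0.42).

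Ybx3, a cold shock domain protein that binds RNA, stood at 7.21 and 3.92 CPM with AIBP, against 19.4, 18.6 and 15.4 CPM with saline, and Trappc10, a subunit of a vesicle tethering complex, at 3.58 and 5.03 CPM with AIBP, against 17.8, 13.2 and 14.8 CPM with saline. In both genes the saline samples lay close together and well above AIBP (-1.68 ± 0.42 and -1.82 ± 0.45), and DESeq2 called both. Axin1, a scaffold of the complex that degrades beta-catenin, had 2.76 and 3.83 CPM with AIBP, against 28.6, 8.78 and 8.91 CPM with saline. Crip1, a small LIM protein, had 6.87 and 7.69 CPM with AIBP, against 9.09, 77.2 and 48.7 CPM with saline, so its difference lay in saline samples 5 and 6, those with the higher monocyte markers. Flvcr1, a heme exporter, and Wrnip1, a partner of the Werner helicase, had log2 fold changes of -2.00 ± 0.55 and -1.73 ± 0.51. Of the 10 genes, 6 averaged under 10 CPM with AIBP. DESeq2 also called Sertad1 (adjusted p = 0.0129), Crip1 (0.00553), Flvcr1 (0.0213) and Axin1 (0.0252), but not Mcl1, Stk17b or Wrnip1.

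**Figure D2:**
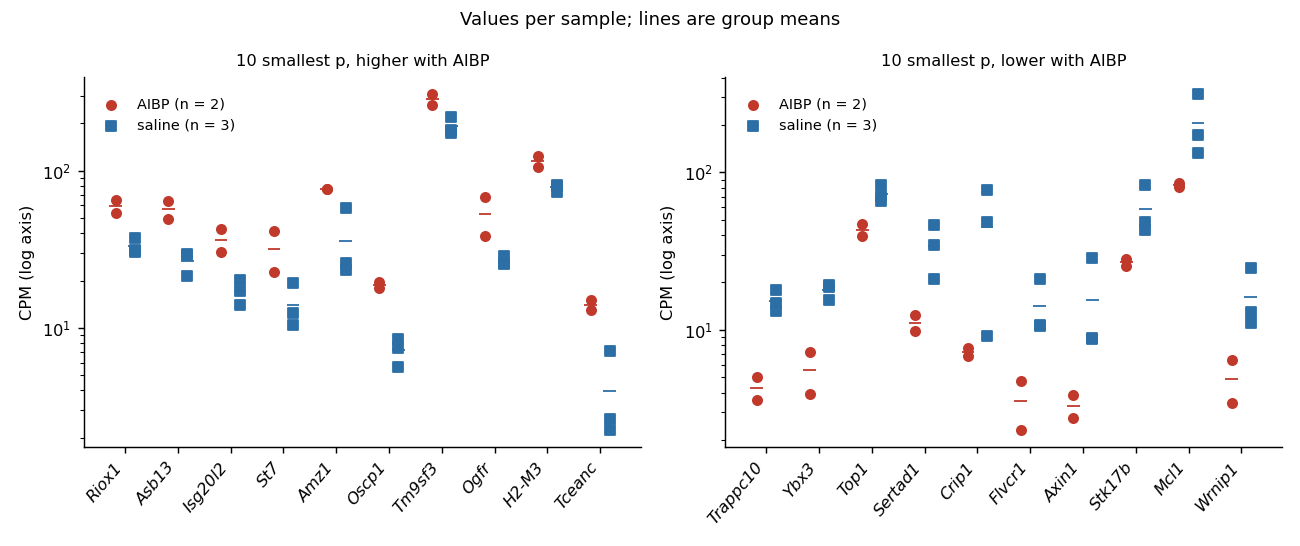
CPM (log axis) of the 10 genes with the smallest p on the higher side (left panel) and the lower side (right panel), each point a numbered sample, AIBP left of saline, with lines at group means. In all 20 genes the groups do not overlap, and all have an adjusted p of 0.996.

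Immediate early genes, which are transcribed within minutes of a stimulus and also of tissue dissociation, had the lowest median among the lists of microglial states and pathways. Of 21 members averaging at least 10 CPM, 14 (66.7%) had both AIBP samples below all saline samples and 0 above, beside 7.83% and 11.3% of all genes of that level. Their median log2 fold change was -1.47, against 0.03 over all such genes. Without adjustment, 9 of the 23 members tested were lower at an edgeR p under 0.05, beside 2.07% of all genes tested, and 0 passed after adjustment. All 21 lay below saline sample 4, beside 32.7% of all genes of that level, and 14 lay below saline samples 5 and 6, beside 17.7%. Without saline sample 4 the median was -0.70, and without saline samples 5 and 6 it was -2.30.

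Klf4, a zinc finger transcription factor, stood at 14.7 and 10.5 CPM with AIBP, against 94, 25.9 and 27.2 CPM with saline; WT naive samples had 57.4, 101 and 69.9 CPM. Its AIBP values were below those of both other groups, with a log2 fold change over saline of -1.96 ± 0.70 (edgeR p = 0.0139) and a range of -2.27 to -1.08 when single samples were left out. Ier3, a stress-induced regulator of cell survival, had 108 and 155 CPM with AIBP, against 606, 299 and 425 CPM with saline. The 6 AIBP libraries of Ier3 lay between 92 and 193 CPM and the 9 saline libraries between 258 and 801 CPM, without overlap. Libraries of 1 numbered sample are not separate samples. Libraries of Klf4 overlapped, with up to 21 CPM with AIBP and from 15.1 CPM with saline, and so did those of Top1, with up to 50.6 CPM with AIBP and from 42.1 CPM with saline. The median SD between libraries of 1 sample, on the log2 scale, was 0.371 and 0.355 in the AIBP samples, against 0.586, 0.345 and 0.385 in saline samples 4, 5 and 6. Single libraries of saline sample 4 stood apart in some genes, with 506, 151 and 147 CPM of Tnf and 644, 141 and 163 CPM of Mcl1. WT naive samples had 115, 348 and 156 CPM of Ier3, so AIBP lay at the low end of the naive range and all saline samples above 2 of the 3 naive samples. Klf6, another Kruppel-like factor, had 231 and 232 CPM with AIBP and 861, 286 and 444 CPM with saline (-1.20 ± 0.46).

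The AP-1 subunit gene Fos stood at 687 and 694 CPM with AIBP, against 4218, 633 and 1886 CPM with saline. Saline sample 5 was below both AIBP samples, so the groups overlapped, and the interval of the log2 fold change ran from -3.74 to 0.34. Jun, the partner of Fos, also overlapped, at 1990 and 1898 CPM with AIBP and 4391, 1630 and 3186 CPM with saline. Dusp1, a phosphatase that shuts off p38 and JNK, had 656 and 639 CPM with AIBP, against 3304, 712 and 1370 CPM with saline. Atf3, a stress-induced repressor, had 35.2 and 44 CPM with AIBP, against 466, 112 and 138 CPM with saline (-2.59 ± 1.08, edgeR p = 0.0299); without saline sample 4 this was -1.66. In these 4 genes the AIBP samples were close to each other and the saline samples were not. Summed over the list, the AIBP samples had 9508 and 9444 CPM, the saline samples 33932, 10777 and 18757 CPM, and the WT naive samples 26803, 55956 and 23318 CPM. The naive samples, which had no injection, thus also had higher sums than the AIBP samples and differed widely among themselves.

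**Figure D3:**
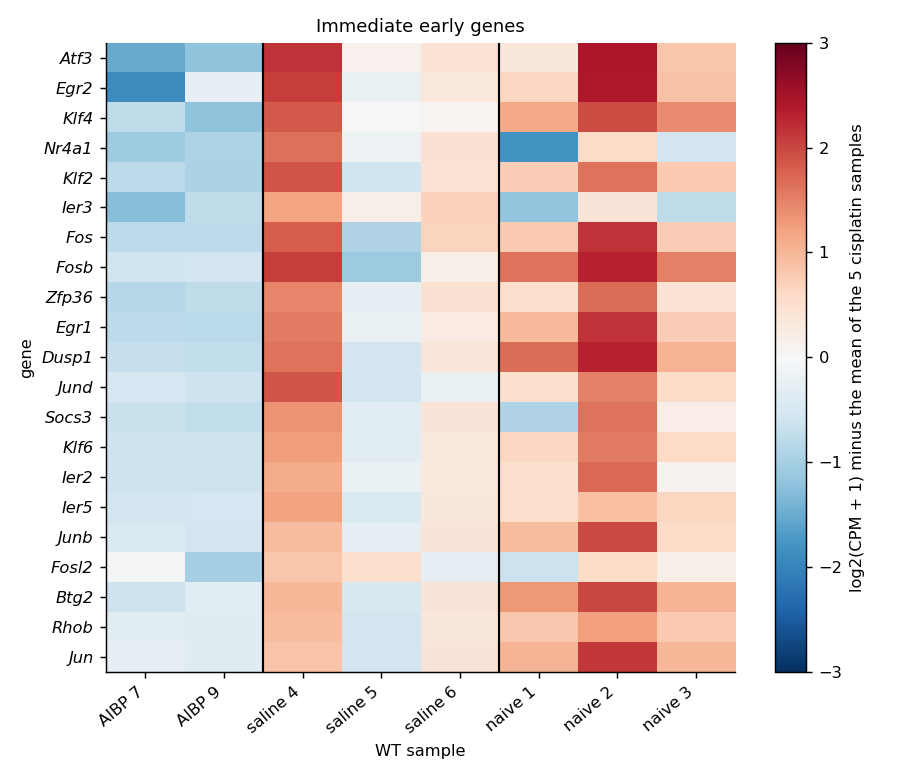
Colour gives log2(CPM + 1) of each immediate early gene at 10 CPM or more (down the page) in each WT sample (AIBP, then saline, then naive), minus its mean over the 5 cisplatin samples. The 2 AIBP samples are pale to dark blue in nearly every gene, saline sample 4 is red in all 21, saline sample 5 is mostly pale blue, and naive sample 2 is the darkest red in most.

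Promoters of members that lay lower together are shown to give the sequence next to the values, from RefSeq (GRCm38.p6), each 300 bases from 250 before to 50 after a start, read 5′ to 3′ on the gene's strand. Capitals mark a motif match: an NF-kB site for Ier3 (chr17:35821463-35821762, plus strand) and Nfkbia (chr12:55492598-55492897, minus strand), an AP-1 match and an NF-kB site for the chemokine gene Ccl9 (chr11:83578587-83578886, minus strand), and a cyclic AMP response element for Dusp1 (chr17:26508423-26508722, minus strand).
Ier3: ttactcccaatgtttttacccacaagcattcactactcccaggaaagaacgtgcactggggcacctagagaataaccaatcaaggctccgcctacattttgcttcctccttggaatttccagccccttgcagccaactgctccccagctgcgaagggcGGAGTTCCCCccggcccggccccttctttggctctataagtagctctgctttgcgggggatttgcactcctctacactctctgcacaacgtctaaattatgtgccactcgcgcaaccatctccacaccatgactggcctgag
Nfkbia: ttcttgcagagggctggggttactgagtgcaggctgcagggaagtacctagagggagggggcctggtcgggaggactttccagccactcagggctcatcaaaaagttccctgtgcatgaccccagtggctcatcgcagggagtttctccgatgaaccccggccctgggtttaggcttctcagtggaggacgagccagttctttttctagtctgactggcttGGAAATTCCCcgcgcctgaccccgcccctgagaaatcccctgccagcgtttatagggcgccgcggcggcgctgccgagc
Ccl9: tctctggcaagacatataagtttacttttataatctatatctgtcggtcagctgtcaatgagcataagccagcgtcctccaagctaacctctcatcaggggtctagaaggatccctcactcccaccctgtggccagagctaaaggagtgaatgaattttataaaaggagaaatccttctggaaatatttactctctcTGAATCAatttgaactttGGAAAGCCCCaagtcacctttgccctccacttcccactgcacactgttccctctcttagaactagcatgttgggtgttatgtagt
Dusp1: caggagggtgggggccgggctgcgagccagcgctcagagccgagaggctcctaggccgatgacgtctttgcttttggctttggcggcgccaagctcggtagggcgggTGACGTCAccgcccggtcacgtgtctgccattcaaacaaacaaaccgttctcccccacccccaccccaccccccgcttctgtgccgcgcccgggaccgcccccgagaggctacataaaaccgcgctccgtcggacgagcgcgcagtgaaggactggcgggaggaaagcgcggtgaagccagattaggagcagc
Both strands were searched for TGACGTCA (cyclic AMP response element), TGANTCA (AP-1), the CArG box and the NF-kB consensus, the last pair by name. Among 20 immediate early genes matched to RefSeq, 5 (25%) held an NF-kB match and 2 (10%) the cyclic AMP response element. The CArG box was in 2 (10%) and the AP-1 letters in 0. Over all 27025 genes with a promoter, the shares were 5.14%, 2.03%, 1.81% and 8.97%, in that order. Among 15 chemokine genes, 6 (40%) held an NF-kB match, 3 (20%) the AP-1 letters and 0 either of the other motifs. A match is a description of letters in this window, and Klf4, Klf6, Ier5, Atf3, Mcl1 and Tnf had none of the 4 motifs in it.

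The list of Toll-like receptor and NF-kB signalling had a median of 0.04 over 33 genes at 10 CPM or more, near that of all genes. Of the 33, 0 did not overlap on the higher side and 3 (9.09%) on the lower side, beside 11.3% and 7.83% of all genes. Tlr2, a receptor of bacterial lipoproteins, stood at 320 and 237 CPM with AIBP, against 256, 300 and 285 CPM with saline (-0.01 ± 0.28), and Myd88, the adapter shared by most Toll-like receptors, at 135 and 110 CPM with AIBP, against 109, 125 and 108 CPM with saline (0.10 ± 0.30). The intervals reached -0.62 to 0.59 for Tlr2 and -0.55 to 0.75 for Myd88. The 3 members with the smallest p encode regulators that NF-kB itself induces, and none passed. Nfkbia, which encodes the inhibitor IkB-alpha and whose promoter is given above, had 340 and 356 CPM with AIBP, against 1756, 457 and 665 CPM with saline (-1.46 ± 0.65, edgeR p = 0.0409, adjusted p = 0.996). Nfkbiz, an inducible nuclear IkB, had 46.9 and 66 CPM with AIBP, against 509, 96.7 and 139 CPM with saline (-2.14 ± 0.79). Tnfaip3, the ubiquitin-editing inhibitor A20, overlapped, at 19.2 and 28.9 CPM with AIBP and 148, 25.2 and 34.7 CPM with saline. For all 3, saline sample 4 was the highest, and without it the log2 fold changes of Nfkbia, Nfkbiz and Tnfaip3 were -0.69, -1.06 and -0.32.

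Among cytokines, Tnf stood at 46.9 and 49.7 CPM with AIBP, against 268, 100 and 123 CPM with saline; WT naive samples had 24.5, 85.8 and 49.5 CPM. The AIBP samples lay within the naive range and below every saline sample, with a log2 fold change over saline of -1.76 ± 0.76 (edgeR p = 0.0352, adjusted p = 0.996) and of -1.21 at the weakest when single samples were left out. Il1b, the precursor of interleukin-1 beta, had 4.04 and 5.21 CPM with AIBP, against 24.1, 24.7 and 22.7 CPM with saline. The saline samples were close to each other here and well above AIBP, yet the interval of the log2 fold change ran from -5.27 to 0.54, with a spread estimated over all 17 samples. Osm, a cytokine of the interleukin-6 family, had 34.6 and 23.8 CPM with AIBP, against 95.1, 79.6 and 66.4 CPM with saline (-1.46 ± 0.57). Of 15 inflammatory genes at 10 CPM or more, 1 (6.67%) did not overlap on the higher side and 4 (26.7%) on the lower side. The shares over all genes were 11.3% and 7.83%, and the median of the 15 was -0.45.

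Chemokines that recruit monocytes and other leukocytes had the second-lowest median among those lists, -0.85 over 12 genes at 10 CPM or more. Of the 12, 7 (58.3%) did not overlap on the lower side and 0 on the higher side, beside 7.83% and 11.3% of all genes. Ccl3, an inflammatory chemokine that attracts leukocytes, stood at 111 and 131 CPM with AIBP, against 387, 296 and 330 CPM with saline. Group means were 121 ± 14 CPM with AIBP (SD, n = 2) and 338 ± 46.3 CPM with saline (SD, n = 3). The groups were apart, with a log2 fold change of -1.48 ± 0.67 (edgeR p = 0.0447, adjusted p = 0.996). Ccl4, a close relative of Ccl3, was much the same, at 208 and 220 CPM with AIBP and 779, 539 and 541 CPM with saline. Ccl9, whose promoter is given above, had 37.8 and 32.2 CPM with AIBP, against 64.2, 76.3 and 70.3 CPM with saline (-1.01 ± 0.37, edgeR p = 0.0168). Ccl6 had 126 and 117 CPM with AIBP, against 152, 318 and 253 CPM with saline, a difference largest in saline samples 5 and 6. Cxcl2, a neutrophil attractant, stood at 2.7 and 0.38 CPM with AIBP, against 20.1, 49 and 50.6 CPM with saline.

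The monocyte attractants Ccl2 and Ccl12 overlapped. Ccl2 had 294 and 240 CPM with AIBP, against 276, 573 and 460 CPM with saline, and Ccl12 had 1537 and 952 CPM with AIBP, against 624, 2565 and 1558 CPM with saline. Saline sample 4 was between the AIBP samples for Ccl2 and below both for Ccl12. Cxcl1, a neutrophil attractant, had 1 count in the AIBP samples against 260 in the saline samples, a ratio of 0.00611 (exact 95% interval 0.000154 to 0.0343, counting error only). Without saline sample 5 the chemokine median was -0.60, the value nearest to 0 over left-out samples, and without saline samples 5 and 6 it was -0.45.

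**Figure D4:**
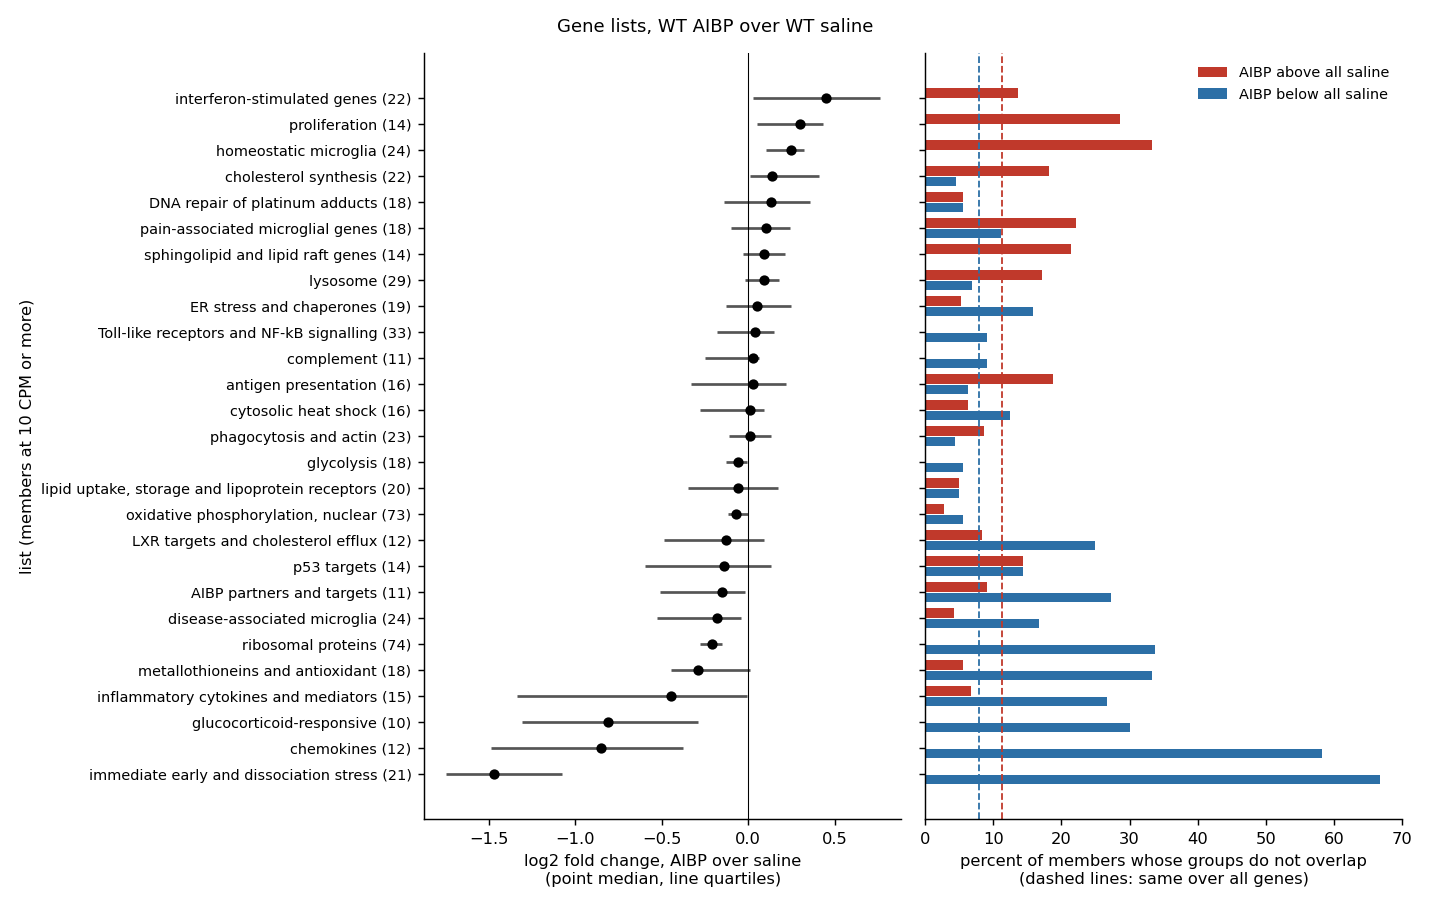
The left panel gives the median log2 fold change (AIBP over saline, WT; point) and quartiles (line) of each list of microglial states and pathways over its members at 10 CPM or more, whose number stands in brackets; the right panel gives the percent of those members with both AIBP samples above all saline samples (red) or below them (blue), with dashed lines at 11.3% and 7.83%, the same shares over all genes. Immediate early genes (-1.47) and chemokines (-0.85) lie furthest to the lower side among them, and interferon-stimulated genes (0.45) furthest to the higher side.

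The homeostatic genes of microglia, those of the resting surveying state, had a median log2 fold change of 0.25. Of 24 members at 10 CPM or more, 8 (33.3%) had both AIBP samples above all saline samples and 0 below, beside 11.3% and 7.83% of all genes. Without saline samples 5 and 6 that median was -0.06, so the direction of the list depended on them. Tmem119, a membrane protein specific to microglia, stood at 3982 and 4578 CPM with AIBP, against 3878, 2589 and 3156 CPM with saline; WT naive samples had 5982, 5700 and 4733 CPM. AIBP thus lay between saline and naive, just above saline sample 4, with a log2 fold change over saline of 0.42 ± 0.19 (edgeR p = 0.0442, adjusted p = 0.996). Cx3cr1 had 7297 and 7902 CPM with AIBP, against 5609, 5531 and 7103 CPM with saline (0.32 ± 0.20), and naive samples had 9989, 10656 and 9349 CPM. P2ry12, a purinergic receptor that guides microglial processes, overlapped, at 2101 and 2507 CPM with AIBP and 2584, 1008 and 2015 CPM with saline, both far below the naive 7225, 6936 and 5651 CPM. Fcrls, an Fc receptor-like protein, had 2647 and 3178 CPM with AIBP and 1932, 2335 and 2488 CPM with saline.

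The set of disease-associated genes, which microglia turn on around lesions, had a median of -0.18 over 24 genes. Of these, 1 (4.17%) did not overlap on the higher side and 4 (16.7%) on the lower side, beside 11.3% and 7.83% of all genes. Apoe, the lipid carrier that defines the set, stood at 1073 and 862 CPM with AIBP, against 1405, 1533 and 1898 CPM with saline. Naive samples had 1120, 1297 and 1264 CPM. All saline samples were above both AIBP samples, with means of 967 ± 149 CPM with AIBP (SD, n = 2) and 1612 ± 256 CPM with saline (SD, n = 3). The log2 fold change was -0.74 ± 0.34 (edgeR p = 0.0463, adjusted p = 0.996). Leaving out single samples gave -0.92 to -0.58. Several other members followed saline samples 5 and 6: Spp1, osteopontin, had 878 and 963 CPM with AIBP, against 738, 3750 and 2215 CPM with saline, and Lgals3, galectin-3, had 24.5 and 28.9 CPM with AIBP, against 3.92, 271 and 287 CPM with saline. In both, saline sample 4 was below the AIBP samples.

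Those same saline samples carried the monocyte markers. All 17 monocyte genes were tested and none was at 0 in all 5 samples. All 17 had a negative log2 fold change, where the median over all genes tested was -0.03. Sums were 396 and 303 CPM with AIBP, 314, 1468 and 1073 CPM with saline and 5.98, 32.2 and 101 CPM in naive samples. Of the 10 averaging at least 10 CPM, 0 had groups that did not overlap. Both AIBP samples were above saline sample 4 in 9 of these, beside 44.5% of all genes of that level. All 10 lay below saline samples 5 and 6, beside 17.7%. Ccr2, the chemokine receptor that brings monocytes out of the marrow, had 6.41 and 10.2 CPM with AIBP, against 0.324, 95.3 and 62.8 CPM with saline. Ly6c2, a marker of inflammatory monocytes, had 3 counts in the AIBP samples against 1345 in saline, a ratio of 0.00354 (exact 95% interval 0.00073 to 0.0104, counting error only). Nearly all of its saline counts came from saline samples 5 and 6, unevenly over their libraries, with 19, 0 and 5.15 CPM in those of saline sample 5. Saline sample 4 was below the AIBP level for Ccr2, so the AIBP samples lay between saline sample 4 and saline samples 5 and 6. Whether monocytes in the sort account for any gene difference was not tested. Markers of border macrophages summed to 118 and 152 CPM with AIBP, against 184, 246 and 194 CPM with saline, with Lyve1 and Cd209b at 0. All 9 border macrophage genes tested had a negative log2 fold change, with a median of -2.86 over the 3 at 10 CPM or more. Siglec1 had 3 counts with AIBP against 853 with saline, and Pf4 had 8 against 4474. In both, the AIBP samples lay below all saline samples, though saline sample 4 had only 0.343 CPM of Pf4. The neutrophil list summed to 460 and 490 CPM with AIBP, against 474, 291 and 408 CPM with saline, with S100a9, Ly6g and Retnlg at 0 in all 5 samples. Nearly all of that sum was Csf3r, which microglia also express, at 460 and 487 CPM with AIBP and 474, 268 and 393 CPM with saline. Of the 6 neutrophil genes tested, the other 5 had a negative log2 fold change: Mmp9 had 0 counts with AIBP, against 714 with saline, and S100a8 had 0 with AIBP, against 266 with saline, both mainly in saline samples 5 and 6.

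Oligodendrocyte markers summed to 497 and 532 CPM with AIBP, against 638, 257 and 577 CPM with saline, astrocyte markers to 256 and 212 CPM with AIBP, against 143, 207 and 315 CPM with saline, and neuronal markers to 6.54 and 3.12 CPM with AIBP, against 7.92, 8.99 and 13.3 CPM with saline. The groups overlapped for oligodendrocytes and astrocytes, and the neuronal sums were lower with AIBP. Markers of endothelial cells and pericytes summed to 16.1 and 17.8 CPM with AIBP, against 14.5, 14.3 and 13.1 CPM with saline. T and NK cell markers summed to 22.4 and 23.5 CPM with AIBP, against 39.1, 13 and 25.9 CPM with saline. The endothelial and pericyte sums were slightly higher with AIBP, but members went both ways. Of 9 tested, 4 had a positive and 5 a negative log2 fold change, and 0 averaged 10 CPM. Vwf had 77 counts with AIBP against 3 with saline, and Pdgfrb 0 against 245. Tek, also of the endothelial and pericyte list, was at 0. Sums of T and NK cells overlapped, with Cd8a and Gzmb at 0.

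**Figure D5:**
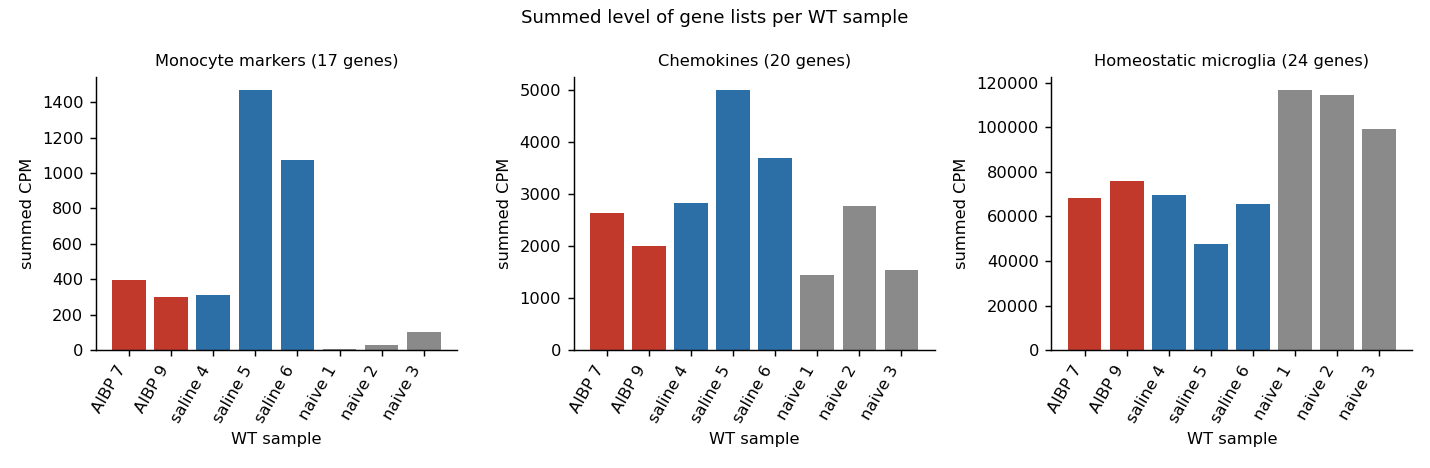
Bars give the summed CPM (axes from 0) of monocyte markers, chemokines and homeostatic microglial genes in each WT sample, AIBP first, then saline and naive. Saline samples 5 and 6 stand above the rest for monocyte markers, at 1468 and 1073 CPM, and for chemokines, at 4992 and 3695 CPM, while the 3 naive samples are the highest for homeostatic genes.

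Lists of lipid genes had medians close to that of all genes, with single members further out. Cholesterol synthesis genes had a median of 0.14 over 22 genes, and leaving out single samples kept it between 0.07 and 0.26. Of the 22, 4 (18.2%) did not overlap on the higher side and 1 (4.55%) on the lower side, beside 11.3% and 7.83% of all genes. Hmgcs1, which makes the precursor of mevalonate, stood at 41.3 and 26.9 CPM with AIBP, against 23.2, 15 and 22 CPM with saline (0.77 ± 0.33, edgeR p = 0.0339, adjusted p = 0.996), and Acat2, which makes acetoacetyl-CoA, at 31.4 and 37.6 CPM with AIBP, against 19.9, 27.3 and 21.9 CPM with saline. Targets of LXR had a median of -0.13 over 12 genes, with 1 (8.33%) not overlapping on the higher side and 3 (25%) on the lower side. Smpdl3a, a phosphodiesterase that LXR induces, had 11.9 and 12.3 CPM with AIBP, against 25.7, 34.5 and 36.3 CPM with saline (-1.41 ± 0.58, edgeR p = 0.0286), with the AIBP samples nearly equal and all saline samples above them. Plin2, which coats lipid droplets, had 64.6 and 70.1 CPM with AIBP, against 69.7, 144 and 129 CPM with saline. Soat1, which esterifies cholesterol for storage, had 104 and 114 CPM with AIBP, against 138, 191 and 137 CPM with saline. Sphingolipid and lipid raft genes had a median of 0.09 over 14 genes, and lipid uptake and storage genes -0.06 over 20.

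Interferon-stimulated genes had the highest median among the lists of microglial states and pathways, 0.45 over 22 genes, and this rested on AIBP sample 7. Without that sample the median was -0.09. Rtp4, an antiviral chaperone, stood at 88.4 and 20.5 CPM with AIBP, against 18.3, 20.6 and 25.7 CPM with saline, and Oasl2, an antiviral protein of the 2-5 oligoadenylate synthetase family, at 62.3 and 11.1 CPM with AIBP, against 5.12, 18.2 and 13.8 CPM with saline. AIBP sample 9 was within the saline range for both, and without AIBP sample 7 their log2 fold changes were -0.09 and -0.16. Ifit3, which binds viral RNA complexes, did not overlap, at 48.3 and 19.5 CPM with AIBP and 8.27, 14.4 and 5.79 CPM with saline (1.84 ± 0.68, edgeR p = 0.0168, adjusted p = 0.996; 1.03 without AIBP sample 7). The list summed to 1233 and 621 CPM with AIBP, against 472, 761 and 883 CPM with saline.

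Atf4, the transcription factor of the integrated stress response, stood at 80.3 and 53.3 CPM with AIBP, against 154, 95 and 122 CPM with saline (-0.89 ± 0.29, edgeR p = 0.00782, adjusted p = 0.996). Its target Ddit3, which encodes CHOP, had 16.9 and 37.8 CPM with AIBP, against 80.3, 54.2 and 59 CPM with saline (-1.24 ± 0.44). Neither gene overlapped between the groups, and neither passed. The endoplasmic reticulum stress list as a whole had a median of 0.05 over 19 genes. Of the 19, 1 (5.26%) did not overlap on the higher side and 3 (15.8%) on the lower side, beside 11.3% and 7.83% of all genes. Of 18 antioxidant genes, 1 (5.56%) did not overlap on the higher side and 6 (33.3%) on the lower side, beside 11.3% and 7.83% of all genes. Their median was -0.29. Mt1, a metallothionein that binds metals, had 181 and 201 CPM with AIBP, against 356, 281 and 301 CPM with saline (-0.71 ± 0.31), and Hmox1, the heme-degrading oxygenase, had 59.8 and 82.3 CPM with AIBP, against 94.7, 198 and 122 CPM with saline. Genes of the p53 response, of interest after a DNA-damaging drug, had a median of -0.14 over 14 genes, and DNA repair genes 0.13 over 18. Glucocorticoid-induced genes had a median of -0.81 over 10 genes, with 3 (30%) not overlapping on the lower side, beside 7.83% of all genes. All 10 lay below saline sample 4, beside 32.7% of all genes.

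Genes of cytosolic ribosomal proteins were slightly lower with AIBP, with a median of -0.21. Of 74 genes, 25 (33.8%) did not overlap on the lower side and 0 on the higher side, beside 7.83% and 11.3% of all genes. Both AIBP samples were above saline sample 4 in 34 of them, beside 44.5% of all genes. They were below saline samples 5 and 6 in 69, beside 17.7%. Without saline samples 5 and 6 the median was 0.02, so the direction depended on those samples. Rpsa stood at 205 and 172 CPM with AIBP, against 265, 252 and 243 CPM with saline, and Rps26 at 61.2 and 60.9 CPM with AIBP, against 79.4, 80.2 and 83 CPM with saline. In these genes saline sample 4 was as high as the other saline samples (log2 fold changes -0.43 ± 0.19 and -0.40 ± 0.17), and the naive samples were far lower, at 58.7, 79.1 and 68.2 CPM for Rpsa. Many ribosomal protein genes have processed pseudogenes, and the sources used here do not say how reads shared with them were counted. Proliferation genes had a median of 0.30 over 14 genes, with 4 (28.6%) not overlapping on the higher side, beside 11.3% of all genes. Mcm3, a subunit of the replicative helicase, had 455 and 472 CPM with AIBP, against 307, 434 and 337 CPM with saline. Naive samples had 113, 105 and 154 CPM of Mcm3.

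Microglial genes linked to pain in earlier work had a median of 0.10 over 18 genes, with 4 (22.2%) not overlapping on the higher side and 2 (11.1%) on the lower side, beside 11.3% and 7.83% of all genes. Irf5, an interferon regulatory factor of reactive microglia, stood at 538 and 498 CPM with AIBP, against 466, 426 and 444 CPM with saline (0.22 ± 0.15). Tnf and Il1b, given above, are the members that did not overlap on the lower side. The other lists lay near no difference: oxidative phosphorylation had a median of -0.07 over 73 genes, glycolysis -0.06 over 18, lysosome 0.09 over 29, antigen presentation 0.03 over 16, complement 0.03 over 11, phagocytosis 0.01 over 23 and heat shock 0.01 over 16. The 7 mitochondrially encoded genes had a median of -0.31, with 2 (28.6%) not overlapping on the lower side.

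The same injection in the samples labelled ABC-imKO gave a test of whether the difference depends on the label. There 2 of 20461 genes were called (0.00977%), Cx3cr1 (log2 fold change 1.41, adjusted p = 0.0201) and Apoe (-3.28, adjusted p = 0.00112). Both are genes in which the AIBP samples of this label stood near WT. The doubt on the labels bears on both calls, on every other value of this label and on the interaction below. Leaving out single samples gave 1 to 15 genes, and a fit of these groups alone gave 0. By the interaction test, the AIBP effect in WT minus that in the samples labelled ABC-imKO, edgeR called 0 genes (0%), with 1285 genes at an unadjusted p under 0.05, a smallest adjusted p of 0.774 and 136 genes called by DESeq2. The smallest p belonged to Apoe, with a difference between effects of 2.54 ± 0.44 on the log2 scale (edgeR p = 4.49e-05). Apoe stood at 1541, 1007 and 1389 CPM in the samples labelled ABC-imKO cisplatin AIBP, against 21278, 8744 and 8111 CPM in those labelled ABC-imKO cisplatin saline. Next were Zmat1, a zinc finger gene (-3.89 ± 0.88), Atf4 (-1.70 ± 0.38), AB124611 (1.97 ± 0.47) and Hsp90aa1, the stress-inducible chaperone HSP90 alpha (-1.60 ± 0.38).

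Immediate early genes and chemokines had list medians of opposite sign under the 2 labels. The immediate early median was -1.47 in WT and 1.39 in the samples labelled ABC-imKO. For chemokines it was -0.85 in WT and 1.32 in the samples labelled ABC-imKO. Chemokine sums overlapped under the ABC-imKO label, at 2382, 3822 and 3883 CPM with AIBP and 1719, 1683 and 3025 CPM with saline. Those of immediate early genes did not, at 19564, 19737 and 37429 CPM with AIBP and 9923, 4648 and 16432 CPM with saline. The doubt on the labels bears on these values too. Fos stood at 2290, 1767 and 4306 CPM in the samples labelled ABC-imKO cisplatin AIBP, against 583, 142 and 1278 CPM in those labelled ABC-imKO cisplatin saline, and the difference between its effects was -3.76 (edgeR p = 0.0104, adjusted p = 0.774). Over the 8415 genes, the log2 fold changes under the 2 labels had a Pearson r of -0.0571 and a Spearman rho of 0.0345. This is across genes, which are not independent replicates, and the 4 groups share no sample.

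Against WT naive samples, edgeR called 256 genes in the AIBP group (1.25% of those tested) and 595 in the saline group (2.91%). These comparisons share the naive samples, and n was 2 in the AIBP group, so the counts do not measure a return toward naive. Leaving out single samples gave 1 to 138 genes for AIBP (1 without AIBP sample 7) and 149 to 853 for saline (149 without saline sample 5, 853 without saline sample 4). Side by side, the immediate early median was -1.81 for AIBP over naive and -0.43 for saline over naive, the homeostatic median -0.69 and -0.77, the ribosomal median 0.87 and 1.08, and the proliferation median 1.97 and 1.92. Both medians of each list rest on the same 3 naive samples, so their likeness is no result. Interferon-stimulated genes had a median of 0.78 for AIBP over naive and -0.12 for saline over naive, with the reservation on AIBP sample 7 given above.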

How the data were processed

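The authors deposited raw counts for 53715 genes in 102 runs. Per the submitters' processing notes, the build was GRCm38, and STAR 2.6.0a, FastQC 0.11.17, MultiQC 1.7, bcl2fastq and DESeq2 are named among the tools. The sources used here give neither the counting tool nor the strand setting, so reads of overlapping or antisense genes cannot be told apart. The 6 runs of a numbered sample were summed, and 17 samples in 6 groups were fitted with edgeR 4.0.16 (R 4.3.3): TMM (factors 0.8852 to 1.109), filterByExpr, a quasi-likelihood group-means model with 11 residual degrees of freedom, two-sided tests and BH adjustment over 20461 genes. The biological coefficient of variation was 0.9216. Pipelines were checked on data simulated with 1 fixed spread for all genes, smaller than that of these samples. That check does not show what differences these samples could detect. DESeq2 1.42.0, limma 3.58.1 (voom), other scaling and filters, left-out samples and a replicate block fitted on single libraries were alternatives. Technical replicate numbers did not pair samples (median r 0.00117 over 18 pairs). Named genes were Abca1, Abcg1 and Naxe, then called genes, filled to 10 per direction by smallest p (10 CPM or more on average in whichever group was higher, no gene models), up to 4 per list by p and 5 for the interaction; other members are given as list members chosen after their values were seen. Members and lists were chosen with earlier results of these data known. Motifs were searched in RefSeq promoters, and counting intervals are exact.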

Additional observations from a re-analysis of the deposited data

How the results depend on the processing

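In WT, AIBP over saline, the count of 0 genes held in edgeR under DESeq2-type size factors, no filter and a stricter filter. It also held in edgeR for the 2 groups alone, each left-out technical replicate and the replicate block. The block with an estimated correlation, fitted by limma-voom on libraries, gave 0 as well. DESeq2 called 104, limma-voom on the numbered samples 4, and edgeR without 1 saline sample 0 to 2. The 2 were Adamtsl2 and Amz1 without saline sample 4. For the samples labelled ABC-imKO (2 genes), DESeq2 called 185, limma-voom 5, no filter 6, the groups alone 0, the replicate block 136, the block with an estimated correlation 118 and left-out samples 1 to 15. The interaction (0 genes) had 136 with DESeq2, 1 with no filter, 103 with the replicate block, 47 with the block and an estimated correlation, and 0 with left-out samples. Replicate numbers do not pair the samples. The replicate block was fitted on 51 libraries with no term for the numbered sample. Libraries of 1 sample thus counted as independent replicates there, and its counts cannot be read as differences between samples. The block with an estimated correlation was also fitted on libraries, with a correlation between those of 1 sample. Against naive, saline (595 genes) had 1795 with DESeq2 and 149 to 853 with left-out samples, and AIBP (256 genes) had 1353 and 1 to 138. Of 79 genes followed, the sign changed for Abcg1 (0.00 without saline 6, 0.18 without AIBP 7, -0.59 without AIBP 9, 0.19 without saline 5 and 6), Rtp4 (-0.09 without AIBP 7, 2.05 without AIBP 9) and Oasl2 (-0.16, 2.34), and, without saline 5 and 6, for Fabp5 (1.14), Gpnmb (0.78), Lgals3 (2.74), Cd74 (0.86), Hp (4.51) and Ly6c2 (0.56). The causes were not tested. The alternative without saline samples 5 and 6 was added after the data were seen. Intervals were widest for genes below 10 CPM.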
